A study of Coregonus migratorius and Coregonus peled with 8 samples.

Results

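Chronic warming of Baikal omul (Coregonus migratorius) larvae was described by setting 1 library of repeatedly heated larvae against 1 library of unheated larvae, 2 of the 8 libraries of the series. Every larva of these groups, heated or not, had been reared in aquaculture for 1.5 months at 9 to 12 °C. The chronic group was then brought to 21 °C for 24 h, with 3 such exposures weekly, and the control group was not heated. Each library was made from the polyadenylated RNA of 12 to 16 whole larvae, extracted singly and combined afterwards. For reference the text also uses omul larvae given acute stress (21 °C for 1 h), omul larvae labelled as nature, which came from hatchery ponds, and the matching 4 libraries of a related whitefish, the peled (Coregonus peled). How many weeks the chronic regime lasted, the age of each group at sampling and the time since the last exposure were not stated in the sources used here, so that age and repeated heating cannot be told apart. With 1 library for each group there is no replicate check, no test was possible, and every difference below compares those libraries and not the conditions.

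The value of a gene is a normalized expression signal with no unit named in the sources used here. The difference between libraries is written as log2((chronic + 1)/(control + 1)), a scale that compresses the differences of scarce genes. A gene was counted where its value was at least 10 in the higher library, which kept 1198 of the 2184 listed genes. The genes carry identifiers of a de novo transcriptome assembly that the files do not pair with gene names, so no pathway, tissue marker or heat shock gene could be looked up, the label of whole larvae could not be checked against markers, and 4 identifiers are printed. In fish in general, warming of cells unfolds proteins and activates heat shock factor, which switches on chaperone genes for a short time, while repeated or lasting warmth also shifts metabolism, membrane lipids and growth over days. Coldwater whitefishes belong to the salmonids, whose ancestor duplicated its genome, so that close gene copies are common and an assembly can divide or merge their reads.

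Chronic and control omul differed at least 2-fold in 259 of the 1198 counted genes, or 21.6%. The directions were nearly balanced in the values as deposited, but which side had more genes depended on how the libraries were scaled. In the chronic library 131 genes were higher (10.9%) and 128 were lower (10.7%). Large differences were few. At least 4-fold apart were 32 genes on the higher side and 29 on the lower side, 2.67% and 2.42% of those counted and together 5.09%. At least 8-fold apart were 11 higher and 5 lower genes, and at least 16-fold apart 3 higher and 1 lower. The remaining 939 genes, 78.4% of those counted, lay within 2-fold. Over all counted genes the log2 ratio had a median of -0.03, with quartiles of -0.50 and 0.45 and a central 90% from -1.50 to 1.51. The list from which these shares come was selected by a rule that is not stated, so they describe the listed genes and not the transcriptome.

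**Figure D1:**
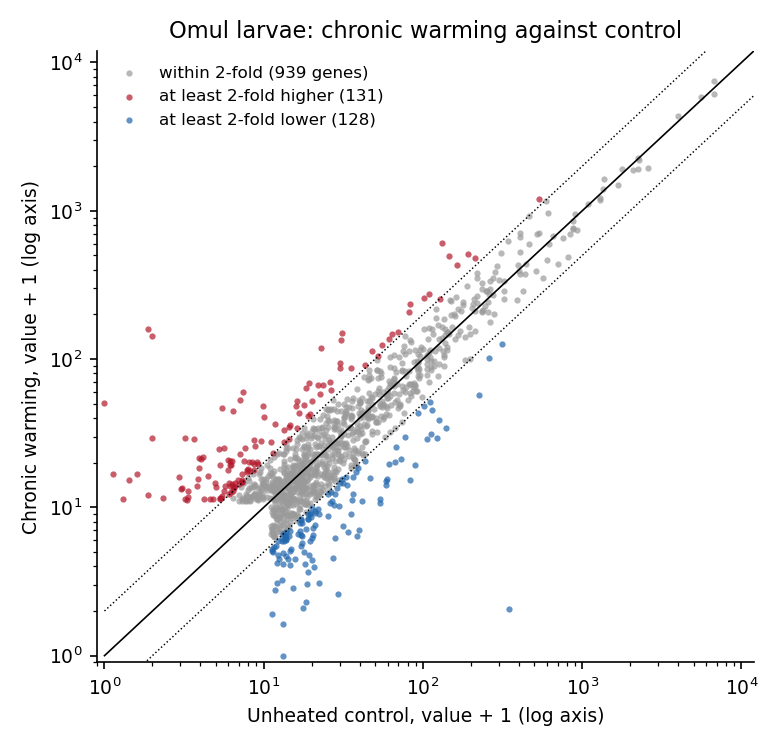
Each point is 1 of the 1198 counted genes, with its value + 1 in the unheated omul control on the horizontal axis and in the chronic omul library on the vertical axis, both logarithmic. The solid line marks equal values and the dotted lines a 2-fold distance of value + 1. The 131 higher genes (red) and the 128 lower genes (blue) lie outside the dotted lines, and the genes of highest value lie close to the solid line.

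The gene just inside the higher set had a control value of 51.4 and a chronic value of 104, and the gene just outside it was at 6.44 and 13.9. On the lower side the gene just inside went from 30.0 to 14.5, and the gene just outside from 17.4 to 8.24. The gene that just met the minimum value had 10.03 in its higher library and the gene that just missed it 9.98.

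The largest log2 ratio on the higher side belonged to TRINITY_DN371823_c0_g1. Its value was 0.88 in control omul, 2.19 in acute omul, 159 in chronic omul and 51.6 in nature omul, and the log2 ratio of chronic to control was 6.41. In peled it was at 10.5 in the control, 16.5 after acute warming, 7.23 after chronic warming and 15.5 in nature. The chronic omul library was therefore the highest of the 8, nature omul came next, and the other 6 lay below 17. It stood at rank 111 among the listed genes of the chronic library and at rank 2016 in the control.

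The gene with the next largest ratio showed another pattern across the libraries. It was at 0.99 in control omul, 105 in acute omul, 141 in chronic omul and 506 in nature omul, and at 298 to 795 in the 4 peled libraries. Here the omul control was the library that stood apart from the other 7. The gene after that was listed at 0 in the omul control and was at 31.8 in acute, 49.2 in chronic and 2.69 in nature omul. In peled it was listed at 0 in the control, acute and chronic libraries and was at 2.28 in nature. Among the 11 genes at least 8-fold higher, the acute omul value exceeded the chronic value in 4, as in a gene with a control value of 4.44, an acute value of 92.4 and a chronic value of 45.7. These genes were chosen for a high chronic value, and the share over all counted genes was not computed.

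On the lower side the largest log2 ratio was that of TRINITY_DN75747_c0_g1. Its value was 343 in control omul, 1.02 in acute omul, 1.05 in chronic omul and 927 in nature omul, and the log2 ratio of chronic to control was -7.39. In peled it was at 1323 in the control, 1249 after acute warming, 1678 after chronic warming and 985 in nature. Both heated omul libraries thus stood near 1 while the other 6 libraries stood at 343 or above. A second listed gene of the same assembly component, a group of contigs that the assembler built from overlapping reads, was at 4.08 in control omul, was listed at 0 in acute and chronic omul and was at 112 in nature omul. That partner was at 198, 25.6, 327 and 248 in control, acute, chronic and nature peled.

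The gene second in size on the lower side was at 12.1 in control omul and was listed at 0 in acute and chronic omul, and also in the 3 aquaculture libraries of peled. The following 4 genes by size of the log2 ratio had control values of 12.2 to 28.3, chronic values of 0.64 to 1.59 and acute values of 0.19 to 1.88. For these genes the acute and chronic libraries were both low, and nature omul, at 1.84 to 5.70, was also below the control.

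**Figure D2:**
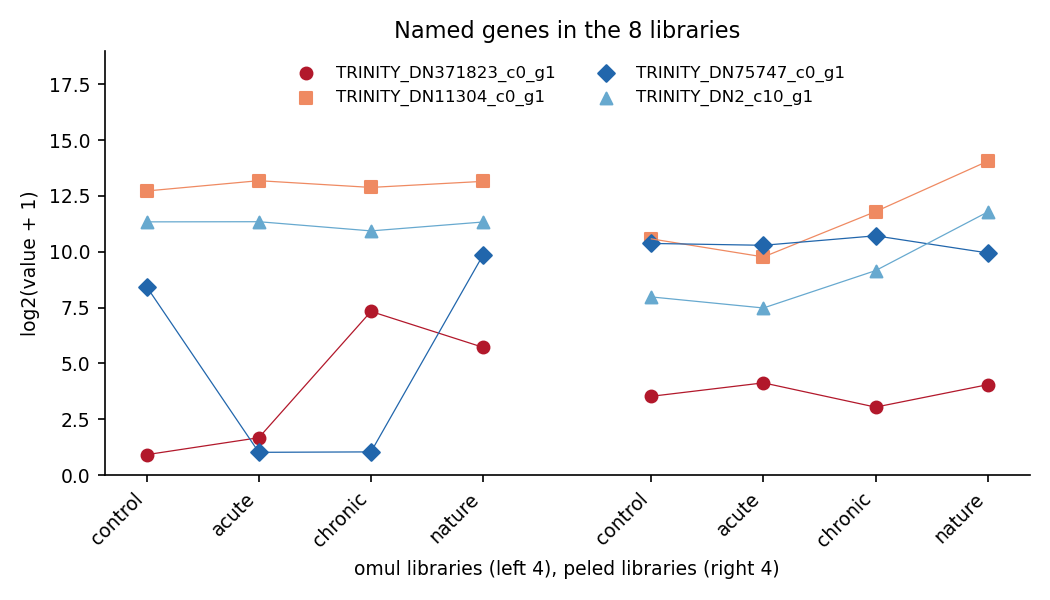
Log2(value + 1) of the 4 named genes in the 4 omul libraries (left) and the 4 peled libraries (right), 1 point a library, with lines to guide the eye within a species. TRINITY_DN371823_c0_g1 is highest in chronic omul, TRINITY_DN75747_c0_g1 is near 1 in value in acute and chronic omul only, and the other two genes stay at high values in every omul library.

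The most abundant transcripts differed little. The same 10 genes were highest in both libraries and held 32.2% of the summed value of control omul and 30.9% of that of chronic omul, with log2 ratios from -0.40 to 0.16, 5 above 0 and 5 below. The largest difference in value upwards was that of TRINITY_DN11304_c0_g1, the highest gene of both libraries. It went from 6748 to 7534, a log2 ratio of 0.16, and was at 9286 in acute and 9093 in nature omul. The largest difference in value downwards was that of TRINITY_DN2_c10_g1, which went from 2586 to 1953, a log2 ratio of -0.40, and was at 2598 in acute and 2576 in nature omul. Both lay within 2-fold and belong to neither set. In peled both were higher after chronic warming than in the control, at 3557 against 1524 for TRINITY_DN11304_c0_g1 and at 569 against 251 for TRINITY_DN2_c10_g1.

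Differences were spread over most levels of expression. Among genes with 10 to 20 in the higher library, 12.2% were at least 2-fold higher and 13.4% lower in the chronic library (507 genes). From 20 to 50 the shares were 9.07% and 9.92% (353 genes), and from 50 to 100 they were 10.3% and 8.97% (145 genes). Between 100 and 500, 12.8% were higher and 8.05% lower (149 genes, 19 against 12). At 500 or more 3 of 44 genes were higher and 0 were lower. The median size of the log2 ratio went from 0.53 in the lowest of these classes to 0.25 in the highest. The width of counting error at each level is not known, since sequencing depth is unknown.

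**Figure D3:**
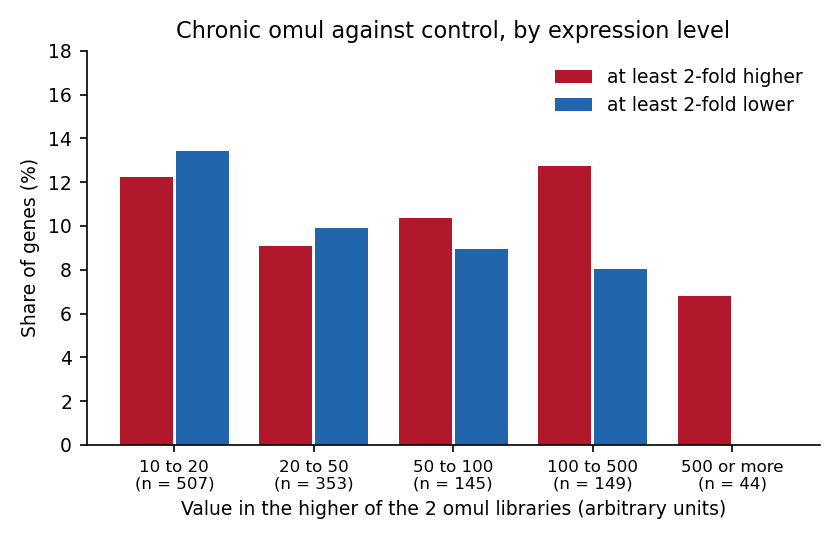
Share of counted genes, in percent, that were at least 2-fold higher (red) or lower (blue) in chronic than in control omul, by the value in the higher of both libraries. Shares of the red bars run from 6.82% to 12.8%, and the blue bars reach 13.4% in the lowest class and 0% in the highest.

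The higher set held abundant members. Its most abundant gene went from 536 in the control to 1198 in the chronic library. The next went from 130 to 601, with 182 in acute and 509 in nature omul. The 131 genes together made up 2.85% of the summed value of the control and 8.02% of that of the chronic library. The 128 genes of the lower set made up 4.45% of the control and 1.28% of the chronic library. Both sets were chosen by these same libraries, so the direction of these shares follows from the choice. After TRINITY_DN75747_c0_g1 the most abundant gene of the lower set went from 312 in the control to 125 in the chronic library. It was at 128 in acute and 18.5 in nature omul.

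The other omul libraries give levels that played no part in the choice of the sets. The median of the higher set was 6.34 in control omul (quartiles 4.31 and 17.7) and 21.8 in chronic omul (13.8 and 58.4), values fixed by the choice. Its median was 14.9 in acute omul (7.74 and 36.1) and 12.3 in nature omul (4.15 and 32.4). The lower set had medians of 19.2 in the control (13.7 and 35.9) and 6.39 in the chronic library (4.18 and 12.7), beside 10.1 in acute omul (5.91 and 20.4) and 14.2 in nature omul (5.63 and 32.5). The 939 genes within 2-fold had medians of 22.5, 21.3, 21.8 and 18.5 in control, acute, chronic and nature omul. For both sets the medians of acute and nature omul lay between those of control and chronic omul. A control or chronic value that is extreme by chance would place other libraries in between as well, and with 1 control library this cannot be told apart.

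**Figure D4:**
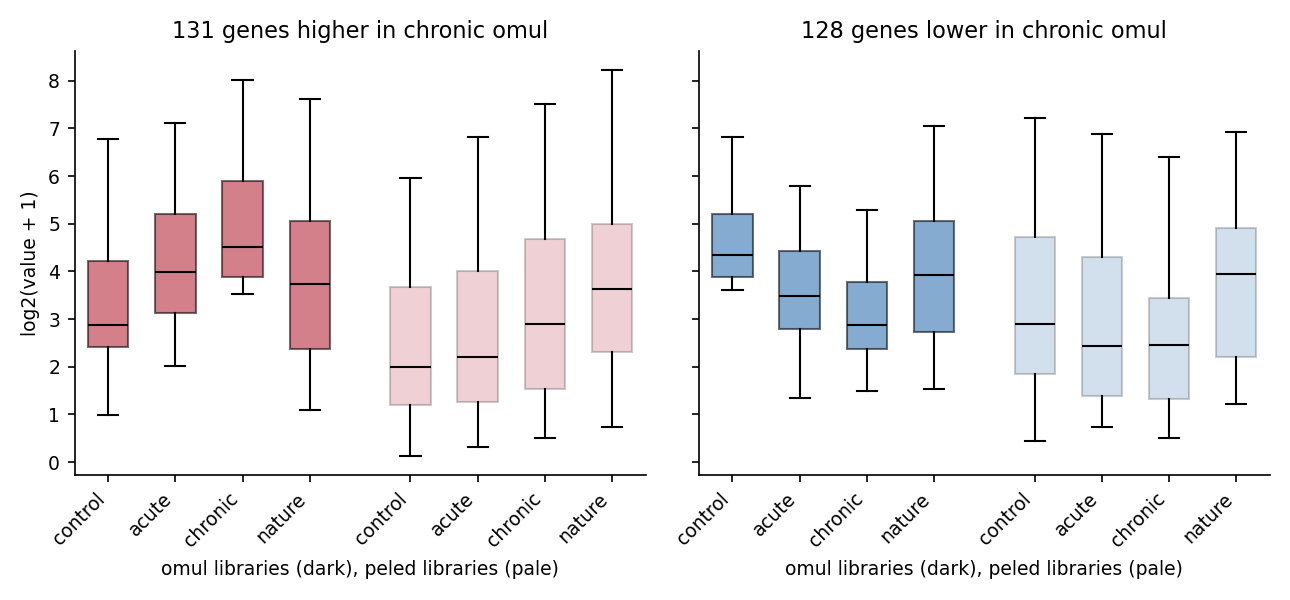
Log2(value + 1) of the 131 genes higher (left) and the 128 genes lower (right) in chronic omul, in the 4 omul libraries (dark) and the 4 peled libraries (pale). Boxes show quartiles with the median as a line, and whiskers reach the 5th and 95th percentiles of genes. The contrast of control and chronic omul follows from the choice of genes, and the other 6 libraries had no part in it.

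The acute library separated the higher set into genes near and far from it. For 48 of the 131 genes the chronic library was also at least 2-fold above the acute library, for 78 both lay within 2-fold, and for 5 the chronic library was at least 2-fold below. The 48 genes had medians of 6.89 in control, 8.46 in acute, 31.2 in chronic and 17.4 in nature omul. The 78 genes had medians of 6.60, 17.7, 19.5 and 10.5. The 5 genes had medians of 2.21, 34.2, 14.2 and 4.18, and their acute values exceed control and chronic by the choice of the class. Of the lower set, 27 genes were at least 2-fold lower in the chronic than in the acute library, with medians of 26.3 in control, 20.7 in acute, 6.06 in chronic and 25.02 in nature omul. For 99 genes the heated libraries lay within 2-fold, with medians of 19.2, 7.89, 6.65 and 11.6, and for 2 genes the chronic library was at least 2-fold above the acute. Over all genes counted in the respective pair, 18.7% were at least 2-fold apart between acute and control and 14.2% between chronic and acute, 7.36% with the chronic and 6.84% with the acute library higher. These 3 comparisons share libraries, so that the overlaps of their genes are not read as a result. The classes were chosen by the control, acute and chronic libraries, so their medians in those libraries follow in part from the choice. Nature omul had no part in it.

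Peled larvae under the same regime share no library with omul. After chronic warming 36.4% of the counted peled genes were at least 2-fold from the control, 20.1% higher and 16.3% lower, and the balance there leaned to the higher side also among genes within 2-fold in omul. Summed values were 80854 in control and 104725 in chronic peled, and the medians of the listed genes were 9.17 and 8.72. This balance was not recomputed under other scalings of the libraries. Of the 131 genes higher in chronic omul, 58 had at least 10 in the higher peled library, and 31 of these (53.4%) were at least 2-fold higher in chronic peled, 2 were lower and 25 lay within 2-fold. Of the 436 such genes within 2-fold in omul, 33.5% were higher and 12.8% lower. Of the 128 genes lower in chronic omul, 56 could be read in peled, where 31 (55.4%) were lower, 3 were higher and 22 lay within 2-fold. A gene low in control peled enters such a count only by being high after warming, and a gene low after warming only by being high in the control. The counts of both sets therefore describe the readable genes alone.

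Without the minimum in peled, 93 of the 131 genes had a log2 ratio above 0 in peled, 35 below and 3 exactly 0 (71.0% above), beside 55.9% above 0 for all 1198 genes counted in omul. The lower set had 37 above 0, 89 below and 2 at 0 (28.9% above). By size in omul, the median log2 ratio in peled over all genes of a class was -0.78 for those at least 4-fold lower (29 genes), -0.72 for those 2- to 4-fold lower (99 genes) and 0.15 for those within 2-fold (939 genes). It was 0.48 for those 2- to 4-fold higher (99 genes, 75.8% above 0) and 0.39 for those at least 4-fold higher (32 genes, 56.3% above 0), so that the genes of the largest ratios in omul did not have the larger median in peled. Among readable genes alone the medians were -1.33 (15 genes), -1.06 (41 genes), 0.51 (436 genes), 0.96 (39 genes) and 1.85 (19 genes) in the same order of classes, and the order of the higher classes was thus opposite with and without the minimum. Among the 48 genes that chronic omul had at least 2-fold above both control and acute omul, 24 could be read in peled, and 16 of them (66.7%) were at least 2-fold higher and 2 lower in chronic peled. Among the 78 genes near the acute level, 29 could be read, of which 11 (37.9%) were higher and 0 lower. Of all 550 genes readable in both species, 32.7% were higher and 16.2% lower in peled. The median log2 ratio in peled was 0.66 for those 29 genes and 0.39 for the 550. Over all members, readable or not, the 48 genes had medians of 3.39 in control and 8.46 in chronic peled. The 78 genes had medians of 2.77 and 3.71. Counts at 2-fold in peled were not computed without the minimum for these classes, so the shares of 66.7% and 37.9% describe readable genes alone. In the lower set, 40 of the 99 genes near the acute level could be read, with 20 lower and 3 higher in peled. Of the 27 genes lower in chronic than in acute omul, 15 could be read, with 11 lower and 0 higher. Across the 550 genes counted in both species, Pearson's r of the log2 ratios was 0.44 and Spearman's rho 0.52, as a description across genes, which are not independent replicates.

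**Figure D5:**
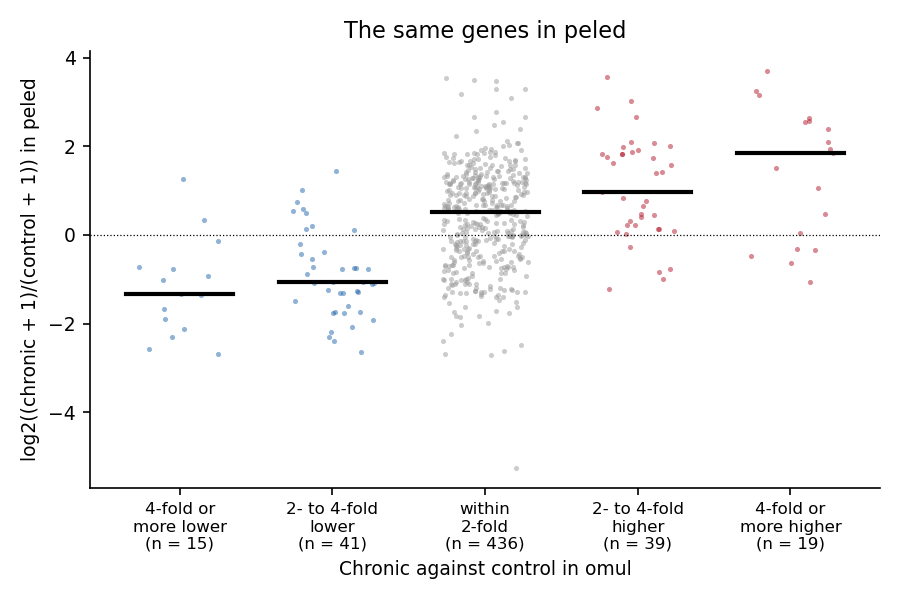
Log2((chronic + 1)/(control + 1)) in peled for the 550 genes counted in both species, grouped by their difference in omul, 1 point a gene with the median as a bar. The medians of these readable genes run from -1.33 to 1.85 with a wide spread in each class, whereas over all members, readable or not, the median is 0.48 for genes 2- to 4-fold higher and 0.39 for genes at least 4-fold higher in omul.

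At least 2-fold apart in opposite directions in omul and peled were 5 readable genes. They were 2 of the 58 readable genes higher in chronic omul (3.45%) and 3 of the 56 lower (5.36%). Of all 550 genes readable in both species, 16.2% were lower and 32.7% higher in chronic peled. A pair was higher in chronic omul, with 29.3 in control and 134 in chronic omul against 19.2 and 8.77 in peled, and with 81.9 and 235 in omul against 33.7 and 13.97 in peled. The other 3 were lower in chronic omul. They went from 26.9 to 11.4, from 10.2 to 0.91 and from 18.6 to 8.11 in omul, and from 5.01 to 15.3, from 240.4 to 578 and from 4.97 to 10.99 in peled. With 1 library a side these differences between species were not tested.

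Listed genes that share an assembly component may be parts, forms or close copies of 1 gene, so they are not independent. The 131 higher genes came from 127 components and the 128 lower genes from 125, and 0 components had members in both sets. Of 45 components with at least 2 counted genes, 7 had 2 members at least 2-fold apart from the control. All 7 pairs went a single way, 4 higher and 3 lower. In a higher pair 1 gene went from 162 to 432 and the other from 130 to 601 in omul, and from 44.0 to 364 and from 30.4 to 183 in peled. In a lower pair the genes went from 32.9 to 5.78 and from 81.6 to 14.3 in omul, and from 302 to 60.0 and from 17.9 to 3.33 in peled. A further 6 components had 1 such member, and 32 had none. Signs differed within several of the other components, as where the log2 ratios were -0.90 and 0.67. The share of the 45 components with a single sign was not computed, so the agreement of the 7 pairs is not read as a result.

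The log2 ratios of counted genes of the same component differed by a median of 0.34. Listed genes below the minimum value were left out, such as the second gene of the component of TRINITY_DN75747_c0_g1 (log2 ratio -2.34). The widest gap among counted genes, 1.84, involved the most abundant gene of the higher set, at 536 in control and 1198 in chronic omul. Its partner was at 704 and 439. Control and acute omul had the partner as the more abundant of the pair, at 704 against 536 and 792 against 625, and chronic omul had the order reversed, as had nature omul with 1578 against 1373. In peled the partner was the more abundant in the control, at 334 against 139, and after chronic warming, at 554 against 463, and nature peled had the order reversed, with 2332 against 3325.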

How the data were processed

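Poly(A) RNA of whole larvae was sequenced, 1 pooled library a group, per the labels' protocols. The authors deposited 1 normalized expression signal per listed gene and library. The values are not whole, and no header or label names their unit. Per the submitters' processing notes, edgeR 4.0.3 and Trimmomatic 0.36 took part, in roles left unstated. No aligner, quantifier or annotation was named in the sources used here, and no assembler apart from the prefix TRINITY of the gene identifiers. Any scaling for length or between libraries is likewise unstated, so levels of different genes were ranked only within this scale. Summed values were 112336 in control and 116807 in chronic omul, with 49 and 74 genes listed at 0. Sequencing depth is unknown.

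From the values, log2 ratios with a pseudocount of 1, counts past 2-fold and medians were computed (Python 3.11.15, pandas 2.3.3, numpy 2.4.6). Counting was run on simulated data with planted changes beyond 2-fold and little noise. That run checks the code and does not measure the accuracy of the counts. Alternatives changed the pseudocount, the minimum value, the scaling and the unit of counting. For each direction the named genes are the largest log2 ratio and the largest difference in value among counted genes, at most 2 identifiers a direction. Other genes are given without identifiers, several of them picked by rank after their values were seen. The members and sets were chosen with earlier results of these data known.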

Additional observations from a re-analysis of the deposited data

Results flagged for a closer look

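Of the 4 named genes, 3 had log2 ratios of chronic to control of opposite sign in omul and peled. Each ratio came from 1 library a side, and these differences between species were not tested. In the whole sets, 35 of the 131 higher genes were below 0 in peled and 37 of the 128 lower genes above 0. Of all 1198 counted genes, 512 were below 0 in peled and 670 above 0 (55.9%). Opposite signs were thus rarer in both sets than these shares of all counted genes. TRINITY_DN371823_c0_g1 and TRINITY_DN75747_c0_g1 were picked for the largest ratios in omul, so the size of their differences follows in part from the choice. For TRINITY_DN371823_c0_g1 the ratio was 6.41 in omul and -0.48 in peled, a difference of -6.90 for peled minus omul. For TRINITY_DN75747_c0_g1 it was -7.39 in omul and 0.34 in peled, a difference of 7.74. For TRINITY_DN2_c10_g1 it was -0.40 in omul and 1.18 in peled, a difference of 1.58. TRINITY_DN11304_c0_g1 had ratios above 0 in both, at 0.16 and 1.22.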

How the results depend on the processing

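Counts were held to be stable within 1.5 times and medians within 0.1 (log2). Of 71 recomputed counts, medians and shares, 56 were stable. The shares were those of assembly components whose members went a single way. They were 100% wherever recomputed and rest on few components, 7 in the main setting, so they say little about stability. With a minimum of 20 in the higher library there were 69 higher and 60 lower genes at 2-fold and 21 and 16 at 4-fold, and the medians in peled were 0.66 for the higher and -0.89 for the lower set. With a pseudocount of 5 the lower genes numbered 79 at 2-fold, the counts at 4-fold were 15 higher and 4 lower, and the medians in peled were 0.28 and -0.56, beside 0.47 and -0.73 as computed with a pseudocount of 1. A pseudocount of 0.1 gave a median of -1.01 for the lower set in peled. With no minimum there were 223 lower genes. Scaling libraries to a common sum gave peled medians of 0.29 and -1.06. Scaling to a common median gave 147 higher and 121 lower genes, and to a common upper quartile 145 and 121. Scaling to a common sum gave 122 higher and 149 lower genes, so the side with more genes changed. The median log2 ratio of all counted genes was 0.04, 0.03 and -0.09 in the same order. The cause of these shifts was not tested, except that stricter minima count fewer genes. The log2 ratio of TRINITY_DN371823_c0_g1 ran from 4.80 to 7.34 and that of TRINITY_DN75747_c0_g1 from -8.22 to -5.85 over pseudocounts of 5 and 0.1, and the 4 named genes kept their sign under each alternative. The planned counts of genes also apart from the control in acute omul were not run, because both comparisons use the same control library. No paired analysis was possible because each group holds 1 library, and no library could be left out.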

Other observations

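Below the minimum value, 986 listed genes had less than 10 in both omul libraries. Of these 986, 56 were at least 2-fold higher and 95 at least 2-fold lower in the chronic library on the log2(value + 1) scale. Of the 1198 counted genes, 131 (10.9%) were higher and 128 (10.7%) lower. The scale compresses the differences of such scarce genes.

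Values below 1 in each of the control, acute and chronic peled libraries were found for 8 of the 131 higher genes (6.11%) and 6 of the 128 lower genes (4.69%), beside 44 of all 1198 counted genes (3.67%), so that the shares of the sets, which rest on few genes, lay near that of all genes. Of the 32 genes at least 4-fold higher in chronic omul they were 4 (12.5%), and of the 29 at least 4-fold lower they were 2 (6.90%). Both shares lay above the 3.67% of all counted genes, but they rest on very few genes and were not tested.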
